A study of Mus musculus with 6 samples.

Results

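The members described here are genes of the spliceosome and of splicing regulation, chosen by symbol, with earlier results of these data known. They are the tested genes whose symbols begin with Snrp, Sf3a, Sf3b, Srsf, Hnrnp, Lsm, Prpf or U2af, with Snrpn and Snrpe left out by name. The name rule matched 81 genes, of which all were tested, and 79 of 14095 tested genes were kept. Messenger RNA was sequenced from mouse embryonic stem (ES) cells of the TT2 line, of mixed C57BL6 x CBA background, grown without feeder cells and taken at passage 5. The 6 libraries were 2 of wild type TT2 cells (WT) and 4 of Alkbh1 KO cells, the latter 2 from each of 2 clones. KO stands for knockout, and the product of Alkbh1 is one of the AlkB-type dioxygenases.

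Splicing removes introns from newly made transcripts. The spliceosome is built from small nuclear ribonucleoproteins (snRNPs), each a small nuclear RNA held in a ring of Sm proteins, or of Lsm proteins in the case of U6, with further proteins of its own. SR proteins and hnRNP proteins bind the transcript itself, and are known for favouring or hindering the use of nearby splice sites. Many of these genes are abundantly expressed in dividing cells such as ES cells.

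All levels, fold changes, p and q below are those of the authors' deposited table, which gives 1 pooled FPKM (fragments per kilobase of transcript, scaled to mapped fragments) per genotype. No library has a value of its own there, so the levels carry no SD, the sequencing depth is unknown, and genotype and clone cannot be told apart. The labels do not say whether libraries of a group came from separate cultures. A gene is called lower or higher in KO where the deposited q is under 0.05. In bulk RNA of this kind, fewer cells of a type and less RNA per cell cannot be told apart.

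The targeted gene and the identity of the cells were checked first. In the authors' deposited table, Alkbh1 was at 33.9 FPKM (WT) against 18.1 FPKM (KO), with q = 0.0943, so its difference was not called. The knockout thus has no called drop of its target here, and Alkbh1 shares its listed region with Snw1. Defining ES cell genes were present in both genotypes, with Pou5f1 at 1222 and 716 FPKM and Sox2 at 278 and 164 FPKM. Of 8 ES cell markers, 7 were tested and 6 of these were called lower. Esrrb, at 75.04 and 84.3 FPKM, was not called, and Nanog, at 481 and 426 FPKM, was not tested. Of the 7, 6 lay in the highest of 10 level classes of tested genes. Of those 6, 5 were called lower, beside 77.2% of all genes in that level class. Of 3 tested neural markers, Pax6 was called lower, at 3.58 and 0.552 FPKM. Tubb3, at 43.1 and 42.4 FPKM, and Nes, at 3.70 and 4.79 FPKM, were not called. The endoderm marker Gata4 was called higher, at 0.345 and 0.557 FPKM, while Gata6 and Sox17 were not tested. Of 7 fibroblast markers, Col3a1 and Lum were listed at 0 in WT, and 3 were tested and higher, of which only Thy1, at 6.43 (WT) and 9.39 FPKM (KO), was above 1 FPKM. The part of such markers in the results below was not tested. The summed FPKM of tested genes was 981679 in WT and 624340 in KO, or 63.6% of WT. Setting both totals equal adds 0.65 to every log2 fold change and moves the median of all tested genes from -0.06 to 0.59. Abundant genes were also lower in general, with a median of -0.72 over the 1404 tested genes of the highest of 10 level classes, called the most abundant genes below. Class medians are therefore also given with equal totals.

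Most splicing genes were lower in KO as deposited, while with equal totals 43 of the 64 called members lay below 0 and 21 above. Counting called and uncalled genes alike, 44 of the 79 members lay below 0 with equal totals, beside 2622 of 14039 tested genes. Among the 1404 most abundant genes, 815 lay below 0 on that scale, and 37 of the 47 members among them did. Of the 79 members, 61 (77.2%) were called lower, 3 higher and 15 were not called, beside 28.4% of all tested genes called lower and 22.4% called higher. Their median log2 fold change was -0.67, which became -0.02 with equal totals and turned to 0.05 when recentred on the most abundant genes. Many members are abundant themselves, and 47 of them lay in that level class, which begins at a mean of 76.1 FPKM. There, 42 of 47 members were called lower and 1 higher, beside 77.2% lower and 1.57% higher among all genes of that class. Of the 64 called members, 46 had the smallest deposited p, 5e-05, which gives q = 0.000206. Closest to the threshold were Sf3a1, called with q = 0.0454, and Prpf6, not called with q = 0.0655. The members made up 2.005% of the summed FPKM of tested genes in WT and 1.767% in KO, a share that no common scaling factor changes. The share of the most abundant genes as a whole was also lower in KO, at 81.8% in WT and 76.0% in KO.

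Core snRNP proteins and proteins that bind the transcript were then set side by side. The core held 31 genes, namely the Snrp members, Lsm2 to Lsm8, the SF3a and SF3b subunits and the Prpf proteins of the tri-snRNP, and the SR and hnRNP proteins were also 31. In the core, 26 (83.9%) were called lower and 1 higher, and among SR and hnRNP proteins 25 (80.6%) were called lower and 2 higher. Of all tested genes, 28.4% were called lower and 22.4% higher. In each arm 22 genes were among the most abundant genes. Of these, 19 in the core and 20 among SR and hnRNP proteins were called lower, beside 77.2% of all genes there. The medians were -0.78 and -0.72, a difference of -0.05 that cannot be tested without values per library and that turned to 0.08 when every member outside SR and hnRNP was counted as core. The summed FPKM of the core was 53.9% of WT in KO, and that of SR and hnRNP proteins 57.6%. The spread inside each arm, from -1.40 to 0.38 in the core and from -1.23 to 0.80 among SR and hnRNP proteins, was far wider than the difference between the medians.

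**Figure D1:**
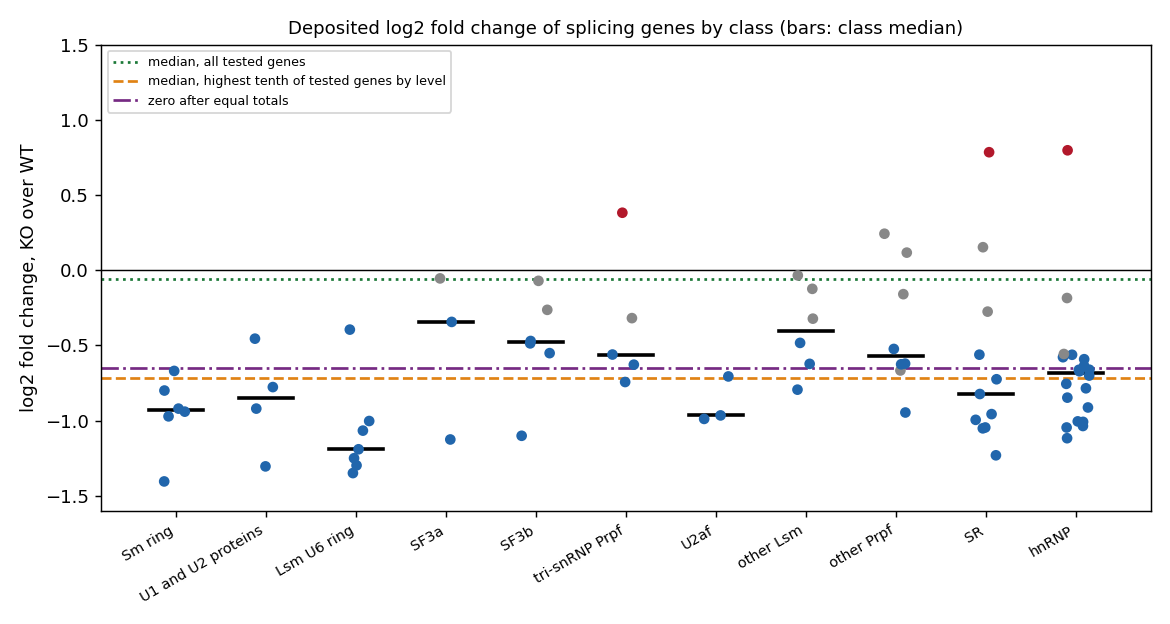
Deposited log2 fold change of KO over WT (vertical axis) for each of the 79 members by class, with blue for called lower, red for called higher and grey for not called. Black bars are class medians, and the lines mark the median of all tested genes, the median of the most abundant genes and the zero that equal totals would give. The Lsm ring lies lowest with a median of -1.19, and the medians of the SF3a, SF3b, other Lsm and both Prpf classes lie above the line of equal totals.

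Promoter sequences are shown, to let the letters before their starts be compared, for the 2 members that fell furthest in the core and among SR and hnRNP proteins (leaving out Snrpd1) and for the 3 that rose. They are the 250 bases before the start listed by RefSeq on GRCm38.p6, another build than that of the table, and 67 of 79 members had an entry. Capitals mark any of 4 motifs on either strand, namely CACGTG (E-box), CCGGAAG (ETS), CCAAT and TATAAA.

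Lsm3 (fell, chr6:91515785-91516034, plus strand): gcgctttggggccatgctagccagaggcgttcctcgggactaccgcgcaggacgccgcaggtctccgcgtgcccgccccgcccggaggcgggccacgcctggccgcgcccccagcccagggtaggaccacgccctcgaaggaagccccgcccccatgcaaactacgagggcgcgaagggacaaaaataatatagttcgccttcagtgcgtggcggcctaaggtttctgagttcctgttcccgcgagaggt

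Snrpb2 (fell, chr2:143062819-143063068, plus strand): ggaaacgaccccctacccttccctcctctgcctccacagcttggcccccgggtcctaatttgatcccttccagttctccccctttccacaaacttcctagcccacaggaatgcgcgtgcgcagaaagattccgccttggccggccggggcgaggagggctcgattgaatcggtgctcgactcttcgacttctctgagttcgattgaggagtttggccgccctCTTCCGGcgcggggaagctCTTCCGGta

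Srsf2 (fell, chr11:116853095-116853344, minus strand): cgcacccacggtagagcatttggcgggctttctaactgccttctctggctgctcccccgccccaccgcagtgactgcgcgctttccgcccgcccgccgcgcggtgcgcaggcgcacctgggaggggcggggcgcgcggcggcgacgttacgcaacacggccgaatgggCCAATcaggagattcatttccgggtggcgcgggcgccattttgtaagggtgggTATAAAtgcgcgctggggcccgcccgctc

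Hnrnpa0 (fell, chr13:58128557-58128806, minus strand): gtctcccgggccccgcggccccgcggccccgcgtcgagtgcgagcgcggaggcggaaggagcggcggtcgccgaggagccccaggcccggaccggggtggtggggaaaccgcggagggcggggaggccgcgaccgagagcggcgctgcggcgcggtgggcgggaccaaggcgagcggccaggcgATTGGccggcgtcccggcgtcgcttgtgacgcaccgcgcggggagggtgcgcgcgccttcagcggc

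Prpf8 (rose, chr11:75486527-75486776, plus strand): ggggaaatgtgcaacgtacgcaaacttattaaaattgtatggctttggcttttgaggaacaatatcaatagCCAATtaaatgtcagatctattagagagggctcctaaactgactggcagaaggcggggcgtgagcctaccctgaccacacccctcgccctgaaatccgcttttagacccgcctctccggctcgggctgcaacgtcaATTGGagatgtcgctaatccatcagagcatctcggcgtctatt

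Srsf12 (rose, chr4:33209022-33209271, plus strand): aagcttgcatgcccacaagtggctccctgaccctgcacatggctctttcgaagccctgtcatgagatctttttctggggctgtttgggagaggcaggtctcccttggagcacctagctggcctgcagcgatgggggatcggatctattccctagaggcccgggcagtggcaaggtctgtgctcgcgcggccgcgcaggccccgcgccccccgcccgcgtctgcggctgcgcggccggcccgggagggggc

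Hnrnpul1 (rose, chr7:25754760-25755009, minus strand): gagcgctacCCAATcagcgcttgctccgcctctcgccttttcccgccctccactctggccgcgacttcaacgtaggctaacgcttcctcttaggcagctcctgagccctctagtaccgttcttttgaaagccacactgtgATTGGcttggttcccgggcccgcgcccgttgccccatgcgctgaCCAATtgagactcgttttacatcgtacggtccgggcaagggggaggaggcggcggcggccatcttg

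The Snrpb2 stretch held ETS letters at 2 places close to the start, and the Srsf2 stretch held CCAAT and TATAAA letters. CCAAT letters alone were found before Hnrnpa0, which fell, and before Prpf8 and Hnrnpul1, which rose. The stretches of Lsm3, which fell, and Srsf12, which rose, held none of the 4 motifs. Across the 67 members, ETS letters were found in 26.9%, against 19.6% of 1027 of the most abundant genes. The share was 13.5% of 10404 tested genes and 7.05% of all 27025 promoters, which include genes not tested here. In the core they were found in 38.5% of 26 promoters and among SR and hnRNP proteins in 20.7% of 29. CCAAT was found in 46.3% of members, 40.1% of the most abundant genes, 36.6% of tested genes and 34.5% of all promoters. It was found in 34.6% of the core against 51.7% of SR and hnRNP proteins. In the order of members, most abundant genes, tested genes and all promoters, CACGTG was found in 7.46%, 9.25%, 8.47% and 6.05%. In the same order, TATAAA was found in 7.46%, 7.30%, 6.48% and 13.0%. A match describes these letters only and was not tested as a site.

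The proteins of the Sm ring, which encircles the RNA of the U1, U2, U4 and U5 snRNPs, all fell as deposited. Snrpg, the most abundant member of all, fell from 1969 to 1040 FPKM. Snrpd1 fell from 664 to 251 FPKM, to 37.8% of WT, the lowest share of any member. Snrpf (403 to 206 FPKM) and Snrpd3 (867 to 452 FPKM) fell to 51.0% and 52.1% of WT. Snrpb fell from 243 to 139 FPKM, and Snrpd2, the least affected, from 903 to 568 FPKM. The 6 genes kept the same order of level in both genotypes, and the highest stood 8.11 times above the lowest in WT and 7.46 times in KO. The class median was -0.93, and with equal totals -0.28, still with all 6 below 0.

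The 4 other Snrp members, which belong to the U1 or the U2 snRNP alone, fell as well. Snrpb2, which binds a stem-loop of the U2 RNA, fell from 275 to 111 FPKM, or to 40.5% of WT. Its partner in the U2 snRNP, Snrpa1, fell from 167 to 88.0 FPKM. Of the U1 proteins, Snrpc fell from 214 to 125 FPKM and Snrpa from 91.7 to 66.9 FPKM. Snrpa had the smallest difference of the 4, with a log2 fold change of -0.45 in the authors' deposited table, and would lie at 0.20 with equal totals. The class median was -0.85, or -0.20 with equal totals.

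The Lsm2 to Lsm8 ring, which binds the end of the U6 RNA, had the lowest median of the classes. Lsm3 fell from 557 to 219 FPKM, or to 39.3% of WT, and Lsm5 from 488 to 199 FPKM. Lsm8, the subunit that sets this nuclear ring apart from the cytoplasmic one, fell from 221 to 93.1 FPKM. Lsm6 fell from 54.9 to 24.04 FPKM, Lsm7 from 249 to 119 FPKM and Lsm2 from 148 to 74.0 FPKM. Lsm4 differed from the rest, falling only to 76.1% of WT, from 122 to 92.7 FPKM with q = 0.0265 in the authors' deposited table. The order of levels was the same in both genotypes except that Lsm4 and Lsm2 changed places. The class median was -1.19 and remained at -0.54 with equal totals, where only Lsm4 lay above 0. Against all genes of the same level class the median difference was -0.53.

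The remaining Lsm members act elsewhere, and their median difference was smaller, though Lsm1, Lsm12 and Lsm14a fell further than Lsm4. Lsm1, which takes the place of Lsm8 in the cytoplasmic ring of messenger RNA decay, fell from 41.4 to 23.8 FPKM. Lsm12 fell from 90.8 to 59.0 FPKM and Lsm14a, a component of cytoplasmic RNA granules, from 81.3 to 58.2 FPKM. Lsm10 and Lsm11, of the U7 snRNP that processes histone messages, stood at 80.0% and 97.7% of WT and were not called. Lsm14b, at 91.8% of WT, was not called either. Of these 6 genes, 3 were thus called lower, and their median of -0.40 turned to 0.25 with equal totals.

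SF3a and SF3b are the subcomplexes of the U2 snRNP that hold it at the branch site, and their subunits did not move together. Sf3a3 fell from 223 to 102 FPKM and Sf3b6, a small protein next to the branch point, from 195 to 90.7 FPKM. Both stood below 50% of WT, at 45.8% and 46.6%. Sf3b5 fell from 70.9 to 48.4 FPKM, Sf3b4 from 57.2 to 40.8 FPKM and Sf3b2 from 140 to 101 FPKM. Sf3a1 fell from 55.2 to 43.5 FPKM. By contrast Sf3b1, the large scaffold subunit, stood at 139 and 133 FPKM, or 95.2% of WT, and was not called. Sf3b3, at 83.3% of WT, and Sf3a2, at 96.3%, were not called either. Of the 9 subunits, 6 were called lower and none higher, with a median of -0.47 that turned to 0.18 with equal totals.

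The Prpf proteins of the tri-snRNP, in which U4, U5 and U6 join, held the only core member called higher. Prpf8, the scaffold of the catalytic centre, rose from 94.4 to 122.98 FPKM, or to 130% of WT, with q = 0.0288 in the authors' deposited table. The U4 and U6 proteins Prpf3 (65.2 to 39.0 FPKM) and Prpf4 (27.6 to 17.8 FPKM) fell. Prpf31, which binds the U4 snRNP, fell from 45.3 to 30.7 FPKM. Prpf6, which bridges the U5 snRNP to the U4 and U6 snRNP, stood at 65.3 and 52.4 FPKM and was not called. The class median of -0.56 turned to 0.09 with equal totals.

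**Figure D2:**
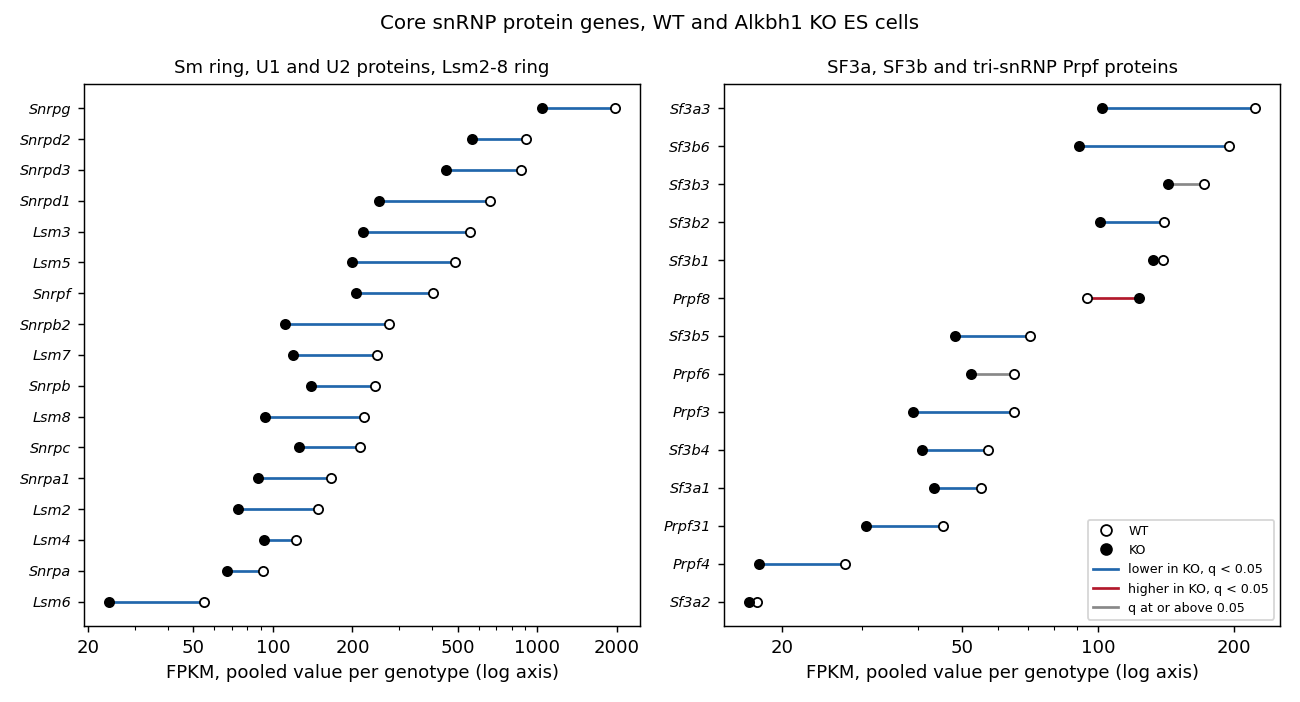
Pooled FPKM on a log axis for the 31 core snRNP genes, open points for WT and filled points for KO, ordered by WT level. Lines are blue for called lower, red for called higher and grey for not called. Each gene of the left panel (Snrp and Lsm) is lower in KO, from Snrpg at 1969 and 1040 FPKM downward, while in the right panel Prpf8 runs the other way and Sf3b1 and Sf3a2 hardly move.

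The U2af proteins recognise the downstream end of the intron. U2af1, which reads the terminal AG, fell from 694 to 355 FPKM, and U2af2, which binds the pyrimidine tract, from 209 to 128 FPKM. Their relative U2af1l4 fell from 39.2 to 19.8 FPKM. All 3 lay below 0 with equal totals as well.

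The other Prpf proteins, which join the spliceosome without being snRNP subunits of the core list, were divided. Prpf38a, a protein of the complex before activation, fell from 152 to 78.7 FPKM. Prpf19, the ubiquitin ligase that gives its complex its name, fell from 73.6 to 47.7 FPKM. Prpf38b fell to 69.6% of WT. Prpf39, Prpf18, Prpf4b (a kinase) and Prpf40b were not called, and stood at 63.0%, 89.6%, 108% and 118% of WT. The median of these 8 genes was -0.57 and turned to 0.08 with equal totals.

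SR proteins carry a domain rich in arginine and serine, and mostly promote the use of exons they bind. Of 11 Srsf genes, 8 fell, 1 rose and 2 were not called. Srsf2 fell furthest, from 499 to 213 FPKM, or to 42.6% of WT. Srsf3, the most abundant, fell from 571 to 276 FPKM. Srsf1, the founding member of the family, fell from 227 to 110 FPKM and Srsf9 from 106 to 53.0 FPKM. Srsf7, Srsf6 and Srsf10 fell to 51.5%, 56.5% and 60.5% of WT, and Srsf11 to 67.8%. Srsf5, at 372 and 307 FPKM, was not called and stood apart from the other abundant SR genes at 82.6% of WT. Srsf4, at 6.38 and 7.09 FPKM, was not called. Srsf12, the scarcest member, rose from 0.756 to 1.303 FPKM with q = 0.00510 in the authors' deposited table. The SR median was -0.82, or -0.17 with equal totals.

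The hnRNP proteins coat nascent transcripts, and many of them repress the sites they bind. Of 20 genes, 17 fell as deposited, 1 rose and 2 were not called, with a median of -0.69 that was -0.03 with equal totals and turned to 0.03 when recentred on the most abundant genes. Hnrnpa0 fell furthest, from 115 to 52.9 FPKM, followed by Hnrnpd, which also binds AU-rich messages, from 98.3 to 47.6 FPKM. Hnrnpab fell from 667 to 325 FPKM, and Hnrnpc, which binds uridine tracts, from 599 to 298 FPKM. Hnrnpu, a chromatin-associated scaffold protein, fell from 615 to 306 FPKM. These 5 genes all stood below 50% of WT. Hnrnpk, a poly-C binding protein and the most abundant hnRNP by mean level, fell less, from 768 to 520 FPKM. Hnrnpa2b1 fell from 777 to 460 FPKM and Hnrnpf from 749 to 474 FPKM. The remaining 9 that fell ended between 53.1% (Hnrnpa3) and 67.0% (Hnrnph3) of WT.

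A pair of related genes differed from the other hnRNPs. Hnrnpul1, which resembles Hnrnpu, rose from 20.2 to 35.2 FPKM, or to 174% of WT, with q = 0.000206 in the authors' deposited table. Hnrnpul2 stood at 48.9 and 43.1 FPKM, or 88.0% of WT, and was not called. Hnrnpa1, at 334 and 227 FPKM, was not called with q = 0.0779. Its region on chromosome 15 (103070827 to 103077129, mm9, as listed) is shared with Gm10052, listed at 631 and 532 FPKM, so reads of the pair are uncertain. The same holds for Hnrnpa3 and Gm6793, which was listed at 2052 and 1187 FPKM. Leaving out the 11 members whose region is shared with another gene gave 54 lower and 3 higher of the rest.

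**Figure D3:**
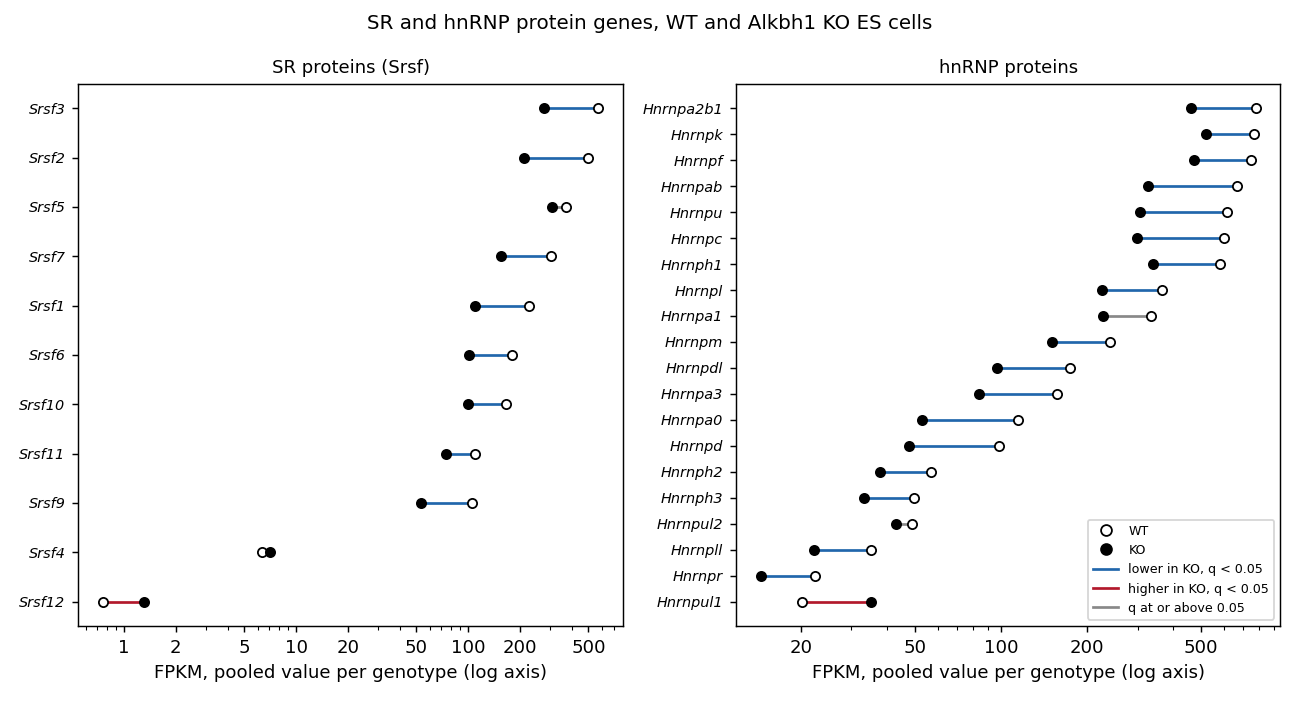
Pooled FPKM on a log axis for the 11 SR genes (left) and the 20 hnRNP genes (right), open points for WT and filled points for KO, ordered by WT level. Lines are blue for called lower, red for called higher and grey for not called. The abundant genes lie lower in KO as deposited, while Srsf12 and Hnrnpul1, each the lowest of its panel in WT, lie higher.

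The members shared a relation with size that the name rule did not use. Across the 79 members, the deposited log2 fold change rose with the longest coding length (Spearman's correlation 0.58), and across 13156 tested genes with a coding length the correlation was 0.37. It was 0.69 in the core and 0.51 among SR and hnRNP proteins. These are descriptions across genes of the same pooled libraries, and length also goes with level (Spearman's correlation -0.35 across members). Tested genes were cut into 5 classes by coding length, and in the shortest class 25 of 26 members were called lower, and none higher, beside 48.2% of all genes there called lower and 9.99% called higher. Of these 26 members, 20 were among the most abundant genes. All 20 were called lower, beside 90.5% of the 539 most abundant genes in that length class. In the longest class, 2 of 9 members were called lower and 2 higher, beside 9.05% of all genes there called lower and 45.95% called higher. Of these 9 members, 4 were among the most abundant genes, with 1 called lower and 1 higher. Of the 86 most abundant genes in that length class, 45.3% were called lower and 3.49% higher. The coding length is 228 bases in Snrpg, 306 in Lsm3 and 357 in Snrpd1, and 3912 in Sf3b1 and 7005 in Prpf8. The pattern has exceptions on both sides: Sf3a3, at 1503 bases, and Hnrnpu, at 2400 bases, fell to below 50% of WT, while Srsf12, at 798 bases, rose. Srsf12 is scarce, however, and its log2 fold change of 0.78 stands beside a median of 0.46 over tested genes of its level class.

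Set against tested genes of both the same level class and the same class of coding length, the members came closer to 0 than as deposited. The median difference was -0.13 over all members, with 51 below and 28 above the median of their class. It was -0.16 in the core and -0.12 among SR and hnRNP proteins. Against the level class alone these 3 medians were -0.10, -0.20 and -0.083, so adding length brought only the core nearer to 0. The Lsm ring still lay at -0.45, with 6 of 7 below. The Sm ring lay at -0.13, SF3b at 0.01 and SF3a at 0.02. Prpf8 lay 0.69, Hnrnpul1 0.80 and Srsf12 0.52 above the median of genes of like level and length. Whether level, length or scaling has a part in these differences was not tested.

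**Figure D4:**
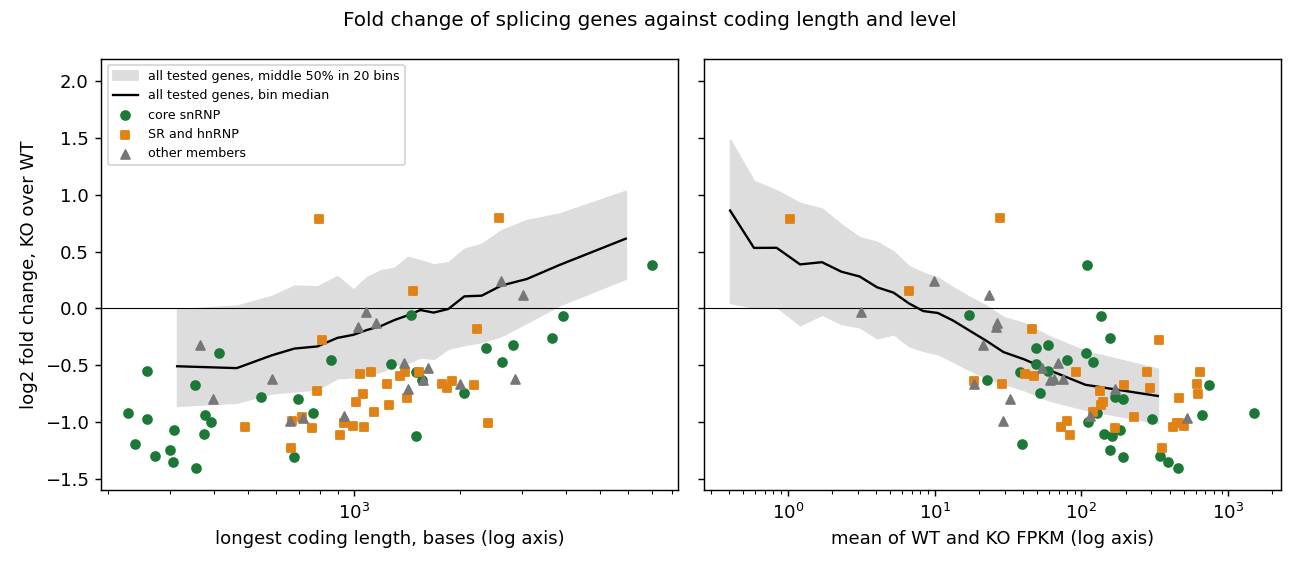
Deposited log2 fold change of KO over WT against the longest coding length (left) and against the mean FPKM (right), both on log axes, with circles for core snRNP genes, squares for SR and hnRNP genes and triangles for other members. The black line and grey band are the median and middle 50% of all tested genes in 20 bins of equal size. Spearman's correlation across members is 0.58 in the left panel and -0.57 in the right, and Prpf8, at 7005 bases, is the longest member.

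Other genes of the splicing pathway, taken from lists of 137 genes that hold no member, are given for comparison. Of 136 tested, 90 were called lower (66.2%) and 8 higher (5.88%), beside 28.4% and 22.4% of all tested genes. Of these 136 genes, 45 were among the most abundant genes, and 42 of the 45 were called lower, beside 77.2% of all genes there. The median of the 136 was -0.59, which turned to 0.06 with equal totals and was -0.08 against the same level class. Among 24 further snRNP proteins, 18 were lower and none higher, led by Ppih, a cyclophilin of the tri-snRNP, which fell from 188 to 86.3 FPKM. The helicase Snrnp200, a partner of Prpf8, was not called, with a log2 fold change of 0.04 in the authors' deposited table. Of 11 genes of the minor spliceosome, which removes rare introns, 9 were lower, such as Zcrb1, which fell from 61.2 to 28.6 FPKM. Of 23 genes of the Prpf19 complex and the catalytic steps, 17 were lower, led by Bud31 (171 to 70.5 FPKM) and Cwc15 (252 to 106 FPKM). Snw1 of this list shares its region in the table with Alkbh1.

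Assembly factors and regulators completed the comparison. Of 15 genes of snRNP assembly, 13 were lower, with Clns1a, which chaperones Sm proteins, falling from 84.1 to 33.0 FPKM and Gemin6 from 116 to 51.6 FPKM. Of 9 genes around the exon junction complex, 8 were lower, led by Magoh, which fell from 739 to 302 FPKM. SR kinases and SR-like proteins were less uniform, with 8 of 22 lower (36.4%) and 2 higher (9.09%), nearer the shares of all tested genes. Tra2a (292 to 139 FPKM) and Tra2b (296 to 156 FPKM) fell. The large SR-like protein Srrm2 rose from 46.5 to 72.6 FPKM and the kinase Srpk2 from 6.86 to 10.04 FPKM. Of 32 tested regulators with tissue or developmental roles, 17 were lower (53.1%) and 6 higher (18.75%), beside 28.4% and 22.4% of all tested genes. Ptbp2, a neural repressor of exons, fell from 15.2 to 6.86 FPKM, and Sfpq from 346 to 161 FPKM. Higher were the epithelial regulators Esrp2 (0.921 to 2.57 FPKM) and Esrp1 (8.55 to 12.7 FPKM), and Celf2, Nova2, Rbm47 and Ptbp3. With equal totals the medians of the last 2 lists turned from -0.27 to 0.38 and from -0.43 to 0.22, while those of the first 5 lay between -0.05 and -0.01.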

How the data were processed

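Stranded mRNA libraries were built from column-purified total RNA, per the labels' protocols. The submitters' processing notes name TopHat2 and mm9. How libraries were pooled and scaled, and the annotation, are not given in the sources used here. In its layout the table is a Cuffdiff comparison, per the file headers: the authors deposited 1 FPKM per genotype, a log2 fold change of KO over WT, a test statistic (a score), a p-value and a q-value.

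No test was run anew, since no library has its own value. Calls use the deposited q at a threshold of 0.05, and classes are described by counts and medians. Benjamini-Hochberg adjustment of the deposited p over 14095 tested genes differed from the deposited q by at most 5.18e-07. Medians used the 14039 tested genes with a finite fold change, in 10 classes by mean FPKM. Coding length, in 5 classes, was that of the longest coding sequence in GENCODE M21, on another build, found for 93.7% of these genes and for all 79 members. Medians and adjustment were checked on simulated data. Alternatives were other thresholds, a fold of 2, means, a pseudocount of 1 FPKM, leaving out genes under the percentile 25 of level, equal totals, recentring on the most abundant genes, other limits of the core, and leaving out shared regions. Comparison with the 200 genes nearest in level, and with genes of like level and coding length, was added after the data were seen.

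The members, classes and lists were chosen with earlier results of these data known. The rule for named genes took, per class, up to 4 called members with the lowest and up to 3 with the highest fold change, the most abundant member and called members against their class, and from each other list the 2 lowest and 2 highest called. The remaining members are named to account for the classes, except 1 whose values are not reported here; Snrnp200, Snw1, Nova2, Esrp1, Rbm47, Ptbp3, the genes in shared regions and the 7 promoters printed were chosen after values were seen. Software was Python 3.11.15 with statsmodels 0.14.6, SciPy 1.17.1, pandas 2.3.3 and NumPy 2.4.6.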

Additional observations from a re-analysis of the deposited data

How the results depend on the processing

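The 61 lower and 3 higher calls gave 57 and 2 at q under 0.01, 63 and 3 at q under 0.1, and 18 and 0 when at least a 2-fold difference was required. By direction after rescaling, the same called genes were 43 below and 21 above 0 with equal totals, and 37 and 27 when recentred on the most abundant genes. Of the 1404 most abundant genes, called or not, 815 lay below 0 with equal totals. The median of all members was -0.019 with equal totals, 0.047 when recentred (reversed), -0.10 against the same level class, -0.064 against the 200 genes nearest in level and -0.13 against genes of like level and length. In the same order the core median was -0.12, -0.058, -0.20, -0.13 and -0.16, and that of SR and hnRNP proteins -0.072, -0.0062, -0.083, -0.14 and -0.12. With the core as Snrp and Lsm2 to Lsm8 its median was -0.97, and with the core as every other member -0.65. The difference of core minus SR and hnRNP was then -0.25 and 0.078, the latter reversed, and it was 0.0078 (also reversed) against the 200 genes nearest in level. So the sign of that difference depends on what is counted as core and on the background. Adjusting over genes at or above the percentile 25 of level left 61 lower and 2 higher calls, since Srsf12 lay below it. The mean, the pseudocount, the level filter and leaving out shared regions moved no median by more than 0.1, and the cause of the shifts was not tested. No paired analysis was possible because the table holds no value per library, which also prevented leaving out replicates. The depth is unknown, and the pooled values limit every comparison to the authors' own test.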

Other observations

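The values listed for 3 small noncoding RNA genes that share a region with a member did not follow those of their hosts in the authors' deposited table. Snord111, a small nucleolar RNA gene in the region of Sf3b3, was listed at 331 FPKM (WT) and at 0 (KO) with q = 0.160, while Sf3b3 stood at 172 and 143 FPKM. Mir7-1, a microRNA gene in the region of Hnrnpk, was listed at 0 (WT) and at 11.2 FPKM (KO) with q = 0.121, while Hnrnpk fell. Mir697, in the region of Sf3a3, stood at 48.2 and 54.8 FPKM with q = 0.937, while Sf3a3 fell. None of the 3 was called, so no difference is shown for them. The libraries were built from mRNA, and how many reads lie behind these values is unknown. Of the protein-coding genes in a shared region, Fkbp3 fell from 627 to 340 FPKM beside Prpf39, which at 22.8 and 14.4 FPKM was not called. By its level Fkbp3 belongs to the most abundant genes, of which 77.2% were called lower. Ccdc38, Phykpl, Rmi1, Rufy2 and BC024978, each in a region shared with a member, were not called.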
